A study of Arabidopsis thaliana with 20 samples.

Results

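The transcripts described here were those with the deepest low 1 h after the lights came on in rosette leaves of Arabidopsis thaliana. They are 150 probe sets of 22746, where a probe set is a group of short oligonucleotides on the array designed for 1 transcript or a few. Members were chosen by measured values. Array signals under 100 were raised to 100, log2 was taken, and the 4 arrays of each harvest time were averaged over both genotypes. Of the 22746 probe sets, 4428 (19.5%) had their lowest mean at 1 h, and the 150 with the largest margin between that mean and the second-lowest mean were taken.

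Leaves came from Atss3 plants, mutants of starch synthase 3, which lengthens the glucan chains of leaf starch, and from WT plants. Both genotypes grew in a growth chamber on short days (light for 8 h, dark for 16 h) and were 6 weeks old. Leaves were taken at 1 h and 4 h in the light and at 8.5 h, 12 h and 16 h, the last 3 being 0.5 h, 4 h and 8 h into the dark. Each of the 10 groups of genotype and time held 2 arrays, 1 from each of 2 runs of the whole experiment with separate randomizations, and each array measured the pooled leaves of 16 plants. P-values given here therefore measure the spread between 2 pooled samples per group. No probe set was named for SS3, so the mutation was not checked through its transcript. The sources used here do not give the mutant allele.

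As background, leaves store part of the day's photosynthate as starch and break it down at night, and sugar level, light and the circadian clock all act on leaf transcript levels. Many transcripts of stress responses and of carbon use in Arabidopsis are known to cycle over the day. Bulk leaf RNA cannot tell fewer cells of a type from less RNA per cell.

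The margins of the members ran from 1.18 to 3.77 on the log2 scale, which is 2.26-fold to 13.6-fold, with a median of 1.51 (2.85-fold). Over all 4428 probe sets lowest at 1 h the median margin was 0.22. In 37 members the margin was at least 4-fold and in 7 at least 8-fold. The last members inside the limit were 263864_at, AT5G47330 (palmitoyl-protein thioesterase-like) and AT1G02300 (cathepsin B-like protease), each at 1.18, and the first outside were AT4G02370 at 1.18, 254659_at at 1.17 and AT4G01330 at 1.17. The limit therefore falls within a continuous run of values. Applied to the other times, the same rule gave a shallower 150th margin of 0.71 for lows at 4 h, 0.67 at 8.5 h, 0.33 at 12 h and 0.39 at 16 h.

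The annotation named 1 gene for 65 members (43.3%), with 65 distinct genes, against 59.4% of all probe sets. A further 3 members had several genes, and 82 were not listed and are unnamed here. The 65 named genes had a median length of 1976 bases, and all named genes on the array 2105 bases. They lay on all 5 chromosomes, from 10 on chromosome 2 to 18 on chromosome 1, which is 15.4% and 27.7% of them, beside 16.3% and 25.7% of all named genes.

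The deposited signals had been scaled to a common mean, so a change in total RNA could not be seen. Median signal over all probe sets lay between 151.7 and 178.4 on the 20 arrays. The log2 ratio of 3′ to 5′ signal for actin, a sign of RNA quality or of labelling, was 1.41 to 2.85 at 1 h and 2.11 to 3.43 at the other times. At 1 h the Atss3 arrays stood at 1.91 and 1.41 and the WT arrays at 2.52 and 2.85, with no overlap of the genotypes. The value of 2.11 was that of the Atss3 array of run 1 at 16 h. For GAPDH the ratio was -0.19 to 0.43 at 1 h and -0.22 to 0.71 at the other times. The WT arrays of run 1 stood low in it at 1 h to 12 h. The part of these ratios in the values of the members was not tested. Of the 5 marker lists, those of mesophyll and of flower and meristem had no named probe set. The phloem transporter SWEET11 had means of 6290 at 1 h, 3323 at 4 h, 4450 at 8.5 h, 6727 at 12 h and 6607 at 16 h, and was higher at 1 h than in the mean of the other times by 0.31 (adjusted p = 0.0227). The root marker PYK10 had means of 205, 167, 201, 422 and 448 at those times (1 h minus the others -0.46, adjusted p = 0.1), and the root hair gene EXPA7 stayed under 100. The guard cell lineage gene FMA had 131 to 232 on all arrays, and the stomatal lineage gene SPCH stayed under 100. The part of these cell types in the results was not tested.

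The median member had a geometric mean signal of 222 at 1 h, 1015 at 4 h, 2280 at 8.5 h, 1191 at 12 h and 1161 at 16 h. Over all probe sets the same medians stayed between 158 and 170. The highest mean was 2.57-fold to 106-fold above that at 1 h, with a median of 6.70-fold. At 4 h the members stood at a median of 69.9% of the log2 distance between their lowest and highest mean, and the median member was 3.37-fold above 1 h. At 16 h it stood 3.68-fold above 1 h. No leaves were taken between 16 h and the end of the dark period.

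**Figure D1:**
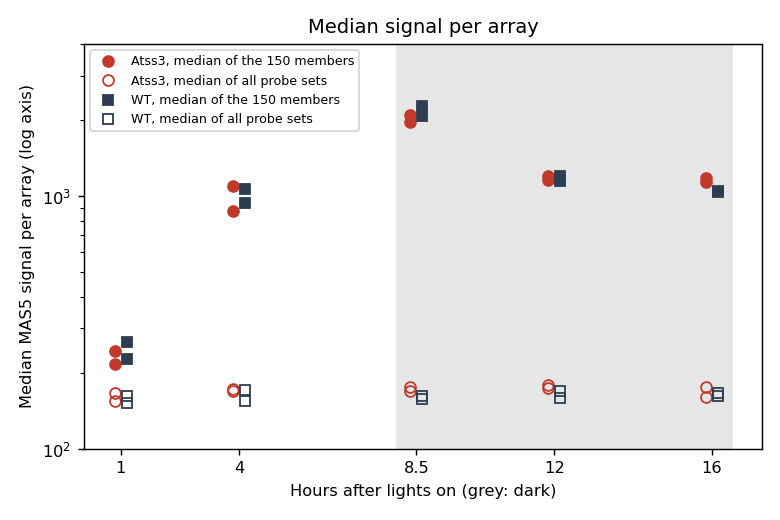
Median MAS5 signal on each of the 20 arrays (log axis) against hours after lights on, for the 150 members (filled) and all probe sets (open), Atss3 in red circles and WT in dark squares; grey marks darkness. The members lie between 216 and 264 at 1 h and between 1958 and 2266 at 8.5 h, while all probe sets stay between 151.7 and 178.4.

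In 144 members all 4 arrays of 1 h lay below all 16 arrays of the other times, which held for 3.41% of all 22746 probe sets. The rule chose on this contrast, so nothing is read from that difference. In the other 6 members the ranges overlapped. The widest overlap was in 263034_at, where the highest of the 1 h arrays was at 503 and the lowest of the others, a WT array at 16 h, at 304. In 43 members at least 1 array of 1 h was under 100, and in 8 all 4 were, so that their margins are lower bounds. No member was under 100 on any array of another time.

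The peak lay at 8.5 h, 0.5 h after the lights went off, in 104 members (69.3%), beside 30.6% of all probe sets lowest at 1 h. The peak lay at 16 h in 17 members, at 12 h in 16 and at 4 h in 13. The second-lowest mean was at 4 h in 70 members and at 16 h in 52. Of all members, 21 (14%) were also among the 150 probe sets with the largest margin of an 8.5 h peak.

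**Figure D2:**
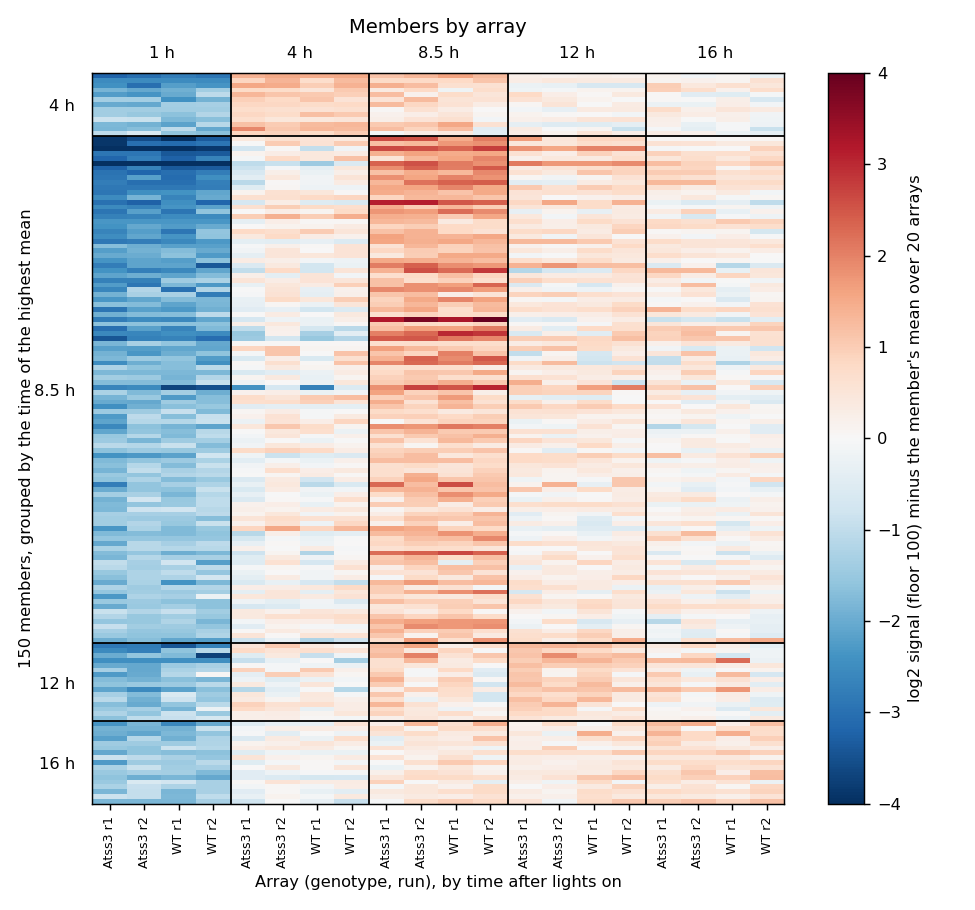
The 150 members (rows, grouped by the time of their highest mean and ordered by margin within a group) on the 20 arrays (columns, by time, Atss3 before WT, r1 and r2 for the runs). Colour is log2 signal minus the member's own mean over 20 arrays; the 4 columns of 1 h are low throughout, and the 104 members of the second block are highest at 8.5 h.

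Among the members peaking at 8.5 h, the largest margin was that of AT4G30650, a small membrane protein of a family responsive to low temperature and salt. Its signals at 1 h were 139 and 174 in Atss3 and 129 and 201 in WT. At 8.5 h they were 12630.2 and 11834 in Atss3 and 5841 and 8731 in WT. All 4 arrays of 1 h stood well below the lowest of the other 16, at 2129. Its geometric means were 158, 2935, 9344, 4070.4 and 2152 at the 5 times in order.

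AT3G62550, which encodes a universal stress protein-like protein, had 286 and 526 in Atss3 and 502 and 568 in WT at 1 h. By 4 h it was at 4253 and 8693 in Atss3 and 6372 and 8692 in WT, and at 8.5 h at 9798 and 10436 in Atss3 and 14337 and 15088 in WT. The WT arrays were above the Atss3 arrays at 8.5 h and the genotypes overlapped at 4 h. At 12 h and 16 h its means remained at 6338 and 6022.

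AT3G47160, a RING domain protein, had 104 and 142 in Atss3 and 83.1 and 147 in WT at 1 h, and 894 to 3621 on the other 16 arrays with a median of 1423. AT5G61590 (DEWAX), an ERF transcription factor known to repress genes of cuticular wax synthesis, had 254 and 413 in Atss3 and 222 and 346 in WT at 1 h. Its other arrays ran from 1396 to 7469 with a median of 2714, and its mean was 6541 at 8.5 h, against 2010 at 4 h and 2100.4 at 12 h. All its arrays of 8.5 h lay above all its other arrays. AT2G43550, a defensin-like protein, had 368 and 490 in Atss3 and 512 and 636 in WT at 1 h, and 2489 to 7670 on the other arrays with a median of 3972.

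DPE1, the plastid disproportionating enzyme that acts on the maltotriose left by starch breakdown, had 108 and 89.0 in Atss3 and 123 and 142 in WT at 1 h. Its means were 1075 at 4 h, 1449 at 8.5 h, 894 at 12 h and 618 at 16 h. The transcript stood 12.4-fold above its 1 h mean at 8.5 h, and its means were lower at each later time in the dark. AT3G15450, a gene known to respond to sugar starvation, had 299 and 238 in Atss3 and 262 and 375 in WT at 1 h. It had 4099 and 9504 in Atss3 and 7578 and 11114 in WT at 8.5 h. Its means were 1466 at 4 h, 7568 at 8.5 h, 1207 at 12 h and 2540 at 16 h, so the level at 12 h was below that at 4 h. CCL, known as a clock-controlled transcript with a short half-life, had 1761 and 2200.4 in Atss3 and 2452 and 2001 in WT at 1 h, and 7349 to 18113 on the other arrays.

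Further named members of this group, picked after their values were seen, had other profiles. AT5G62360, of the invertase and pectin methylesterase inhibitor family, had 85.3 and 123 in Atss3 and 117 and 165 in WT at 1 h. At 8.5 h it had 6446 and 9410.1 in Atss3 and 6765 and 11926 in WT, while its means were 599 at 4 h and 636 at 12 h. AT5G19120, of the aspartyl protease family, likewise had a mean of 5351 at 8.5 h, beside 159 at 1 h, 536 at 4 h and 951 at 12 h. In both, the mean at 8.5 h was several times that at any other harvest.

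BGLU44, a beta-glucosidase, had instead nearly the same mean at 4 h (5338) as at 8.5 h (5527), beside 733 at 1 h and 1785 at 12 h. LCR69, a plant defensin, had a mean of 214 at 1 h, 3491 at 8.5 h, 1441 at 12 h and 2386 at 16 h. AT5G08520, a Myb-like transcription factor, had 123 and 155 in Atss3 and 136 and 158 in WT at 1 h and a flatter course afterwards, with 654 to 1285 on the other 16 arrays. MAP1C, a methionine aminopeptidase, had a mean of 326 at 1 h and stood at 2565 at 8.5 h and 2306 at 12 h. The group was formed by the time of the low and the time of the peak in the mean of both genotypes. In WT alone BGLU44 had an arithmetic mean of 5206 at 4 h and 4343 at 8.5 h. These members differed in how far the signal stood above 1 h at the later harvests.

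Several unnamed members had a wide range of signals. The probe set 263548_at had 198 and 214 in Atss3 and 185 and 263 in WT at 1 h, and 18984 to 25735 on the 4 arrays of 8.5 h, a ratio of means of 106-fold. The probe set 249850_at was under 100 on all 4 arrays of 1 h, between 57.5 and 73.1, and had a mean of 7778 at 8.5 h, at least 77.8-fold above 100. For 255331_at the 1 h signals were 218 and 219 in Atss3 and 155 and 160 in WT, and the mean at 8.5 h was 4681. The other probe sets among the 15 largest margins were 265478_at, 250649_at, 249862_at and 253981_at, all peaking at 8.5 h, with margins of 2.62 to 2.93, and 245928_s_at, which peaked at 12 h.

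**Figure D3:**
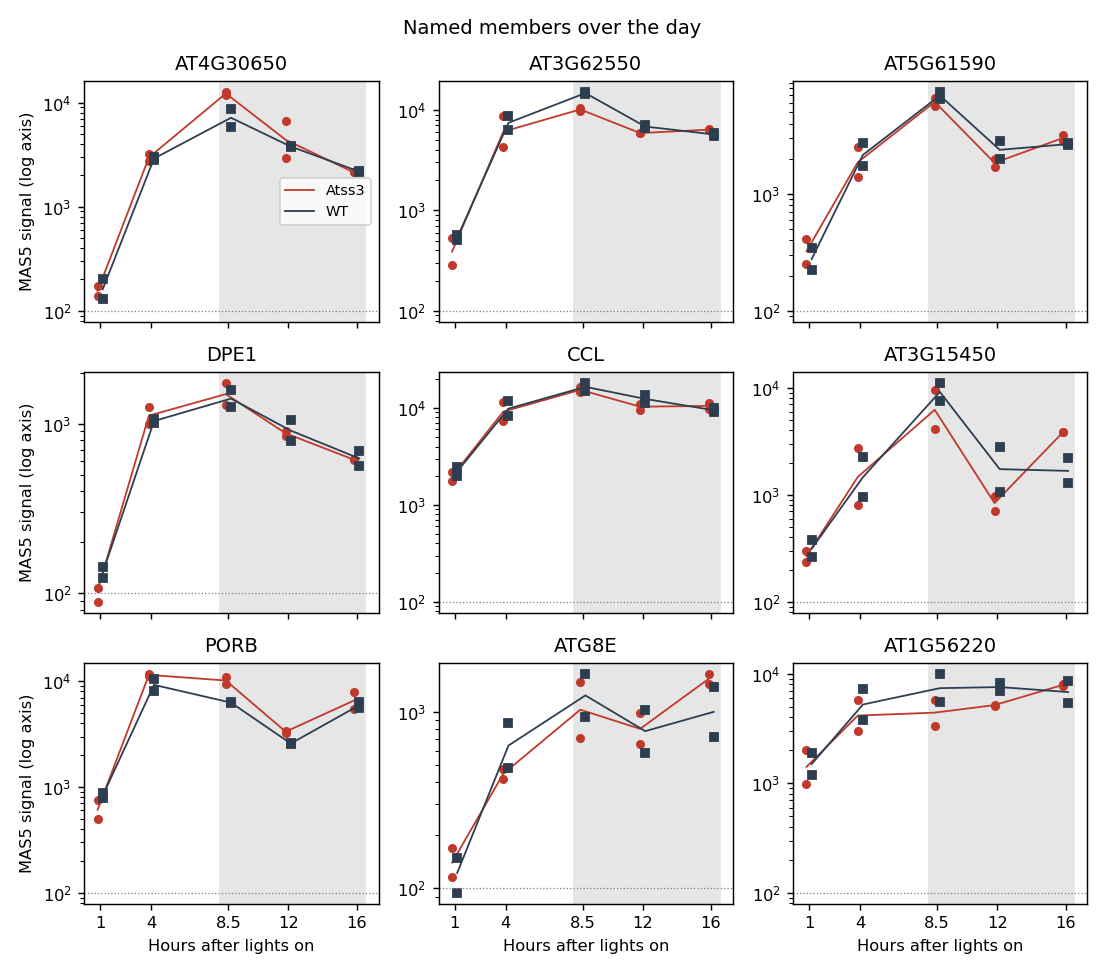
MAS5 signal (log axis) of 9 named members on every array against hours after lights on, Atss3 in red circles and WT in dark squares; lines join the geometric means, grey marks darkness and the dotted line is the value 100. Every member is lowest at 1 h; DEWAX (AT5G61590) and AT3G15450 have their maximum at 8.5 h, PORB has its maximum at 4 h, and ATG8E and AT1G56220 are highest at 16 h in the mean of both genotypes.

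The 13 members peaking at 4 h had a median signal of 236 at 1 h, 1263 at 4 h, 1046 at 8.5 h, 963 at 12 h and 749 at 16 h. The largest margin among them was that of AT1G70820, a putative phosphoglucomutase, with 168 and 189 in Atss3 and 224 and 208 in WT at 1 h. At 4 h it had 3980.2 and 4334 in Atss3 and 4257 and 4373 in WT, and by 16 h its mean was 1490. AT2G39920, an acid phosphatase-like protein of the HAD superfamily, was under 100 on all arrays of 1 h (27.9 to 68.5) and had a mean of 1184 at 4 h, so its margin of 2.77 is a lower bound. PORB, a protochlorophyllide oxidoreductase of chlorophyll synthesis, had 751 and 497 in Atss3 and 879 and 782 in WT at 1 h. Its means were 10282 at 4 h, 7973 at 8.5 h, 2929 at 12 h and 6236 at 16 h, so that its mean at 12 h was below those at 8.5 h and 16 h.

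Of the other named members of that group, AT1G68600, of the aluminium-activated malate transporter family, had 415 and 399 in Atss3 and 652 and 667 in WT at 1 h, and a mean of 2902 at 4 h. Fes1B, an exchange factor of HSP70 chaperones, had a mean of 142 at 1 h and 1077 at 4 h, and AT1G02300 was the last member inside the limit.

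The 16 members peaking at 12 h had medians of 192, 603, 828, 1055 and 666 at the 5 times in order. They included 3 named genes. AT4G17470, a palmitoyl-protein thioesterase-like protein, was under 100 on all arrays of 1 h and had a mean of 1230.0 at 12 h. Its arithmetic means were higher at 16 h (1323 in Atss3 and 1534 in WT) than at 12 h (1212 in Atss3 and 1266 in WT). AT3G61100 had 103 and 94.5 in Atss3 and 152 and 170 in WT at 1 h, and a mean of 845 at 12 h. RAP, known for maturation of chloroplast 16S rRNA, had 245 and 149 in Atss3 and 256 and 271 in WT at 1 h, and a mean of 935 at 12 h. Its arithmetic means at 4 h and 12 h were close, with 986 and 970 in WT and 872 and 942 in Atss3.

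The 17 members peaking at 16 h had medians of 284, 765, 1053, 858 and 1096 at the 5 times in order, each taken over the members at that time. ATG8E, a ubiquitin-like protein of autophagosomes, had 116 and 168 in Atss3 and 94.4 and 149 in WT at 1 h. At 16 h it had 1433 and 1630 in Atss3 and 722 and 1373 in WT. AT1G56220, of the dormancy and auxin-associated family, had 986 and 2014 in Atss3 and 1184 and 1889 in WT at 1 h, and its 16 other arrays ran from 2985 to 9916. In WT alone ATG8E had a higher arithmetic mean at 8.5 h (1281) than at 16 h (1048). The same held in WT for AT1G56220, with 7695 at 8.5 h and 6975 at 16 h. AT5G44680 (DNA glycosylase family), AT5G63480 (Mediator subunit MED30), AT3G53950 (glyoxal oxidase-related) and AT1G63880 (a TIR-NBS-LRR disease resistance protein) had margins of 1.69, 1.59, 1.45 and 1.43. AT5G63480 was under 100 on 3 of the 4 arrays of 1 h.

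The 1 h means of the members ran from 100 to 4245. The naming rule also took the 5 members at each end of the mean signal over the day, which is no order of transcript amounts, since signals of different probe sets cannot be set against each other. At the bright end these were 254232_at, 257641_s_at, CCL, 259640_at and 265352_at. At the dim end they were AT1G28070, 260431_at, AT5G63480, AT3G56720 and AT3G62950, a glutaredoxin.

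Among the 65 named genes, 3 pairs lay close on a chromosome, with at most 2 protein-coding genes between them. These pairs were found after their values were seen. AT4G30650 adjoined AT4G30660, of the same family, which had 241 and 246 in Atss3 and 271 and 269 in WT at 1 h, and means of 3610.0 at 4 h and 3991 at 8.5 h. AT2G43550 lay near AT2G43530, also defensin-like, with means of 1653 at 1 h and 9342 at 8.5 h. AT2G39920 lay near WLIM2a, a LIM protein that bundles actin. Related genes can share probe sequence, and whether these probe sets cross-hybridise was not tested.

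The low at 1 h was present in each genotype and each run taken alone. All 150 members were lowest at 1 h in Atss3 and in WT, in run 1 and in run 2. Median margins were 1.61 in Atss3 and 1.42 in WT, and 1.56 in run 1 and 1.51 in run 2. Since the rule averaged these arrays, the counts describe the members and test nothing. The time of the peak was the same in both genotypes for 113 members and in both runs for 110. Peaks at 16 h numbered 23 in Atss3 and 10 in WT, and peaks at 4 h numbered 10 in Atss3 and 19 in WT. The runs, each holding both genotypes, were split in a similar way. Peaks at 16 h numbered 20 in run 1 and 11 in run 2, and peaks at 4 h numbered 12 in run 1 and 20 in run 2. These counts were not tested.

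A choice made in 1 run and read in the other does not reuse its arrays. Of the 150 probe sets chosen in run 1 alone, all 150 were lowest at 1 h in run 2, with a median margin of 1.30, beside 18.4% of all probe sets. Of the 150 chosen in run 2 alone, 148 were lowest at 1 h in run 1, with a median margin of 1.38, beside 18.1% of all probe sets. The 2 lists had 86 probe sets in common, 57.3% of each. Lists from Atss3 alone and from WT alone shared 93, 62% of each.

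Genotype was compared in a linear model over all 20 arrays (limma, run as a block), with Benjamini-Hochberg adjustment over 14650 probe sets, which kept all 150 members. At 1 h, 1 member passed an adjusted p of 0.05, where 0.0614% of all probe sets did. This was 251935_at, an unnamed probe set, with 72.0 and 94.5 in Atss3 and 241 and 270 in WT at 1 h. Both Atss3 arrays lay below both WT arrays and below 100. It was lower in Atss3 by a log2 difference of -1.35 (SE 0.16, adjusted p = 0.00315), computed with the Atss3 values raised to 100. Raised in this way the 2 Atss3 arrays were equal, so the p-value holds no spread between them. The call was lost without 1 of the Atss3 arrays of 1 h (run 1, adjusted p = 0.117) and without 1 of the WT arrays (run 2, adjusted p = 0.108).

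The next smallest p at 1 h was that of 263679_at, with 117 and 104 in Atss3 and 227 and 318 in WT, a log2 difference of -1.28 (adjusted p = 0.0759). Over all members the median difference at 1 h, Atss3 minus WT, was -0.12, and 44 members were above 0 and 102 below, beside a median of 0.01 and 51.9% above 0 over all probe sets. At an unadjusted p under 0.05 there were 27 members, 7 higher and 20 lower in Atss3, which is 18% of members beside 9.59% of all probe sets. In run 1 alone the median was -0.10 and in run 2 alone -0.11. Without the Atss3 array of run 1 at 1 h it was -0.06 with 64 above 0, and without that of run 2 it was -0.18 with 57 above 0. The actin ratio was lower on both Atss3 arrays of 1 h than on both WT arrays, and its part in this difference was not tested. Without the WT array of run 1 at 1 h, whose GAPDH ratio stood low, 6 members (4%) were called, and so were 249 of 14606 probe sets (1.7%), against 9 with it.

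The depth of the low was compared as the 1 h mean minus the mean of the other 4 times, in Atss3 minus the same in WT. Again 251935_at was the 1 member called, with 0.0137% of all probe sets called. At 4 h it had 928 and 807 in Atss3 and 943 and 915 in WT, and at 8.5 h 1464 and 1033 in Atss3 and 1223 and 1044 in WT, so the genotypes overlapped at both times. The interaction was -1.46 (SE 0.18, adjusted p = 0.0108), a deeper low in Atss3. Without the replicate block it was no longer called (adjusted p = 0.0632), nor with 64 added to each signal (adjusted p = 0.0937), nor without either of the 2 arrays named above (adjusted p = 0.219 and 0.187). Without the WT array of run 1 at 1 h, 9 members (6%) were called, and so were 334 of 14606 probe sets (2.29%), against 2 with it.

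The members with the next smallest p in depth were 263679_at at -1.49 (adjusted p = 0.0995) and AT3G61100 at -0.87 (adjusted p = 0.148). The interaction of the largest size was that of 263034_at, at -1.82 (adjusted p = 0.422). PORB, with an interaction of -0.82, had an adjusted p of 0.285. Over all members the median interaction was -0.12, with 57 above 0, beside 0.01 and 52.1% above 0 over all probe sets. This median depended on single arrays. It was -0.05 without the Atss3 array of run 2 at 4 h, -0.18 without that of run 1 at 4 h, -0.07 without the Atss3 array of run 1 at 1 h, -0.20 without that of run 2 at 1 h, -0.07 without the WT array of run 2 at 1 h, and -0.08 with arrays centred on their median. At an unadjusted p under 0.05 there were 30 members, 8 shallower and 22 deeper in Atss3, which is 20% of members beside 9.69% of all probe sets.

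**Figure D4:**
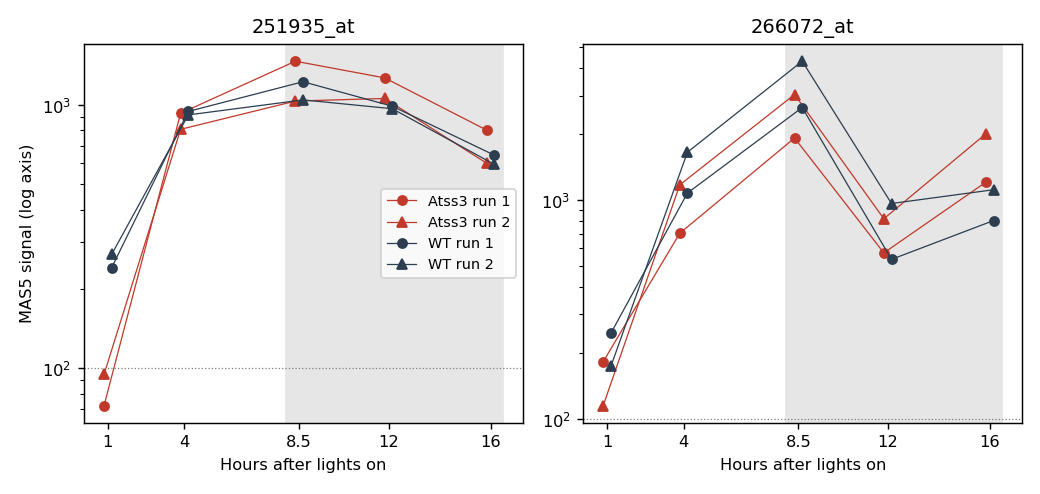
MAS5 signal (log axis) of 251935_at and 266072_at on every array against hours after lights on, Atss3 in red and WT in dark, run 1 as circles and run 2 as triangles; grey marks darkness and the dotted line is the value 100. The Atss3 arrays of 251935_at stand at 72.0 and 94.5 at 1 h, below the WT arrays at 241 and 270. For 266072_at, run 2 lies below run 1 at 1 h and above it at the other 4 times in both genotypes.

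Over the 5 times together no member was called for Atss3 minus WT, with 0.0205% of all probe sets called. There were 28 members at an unadjusted p under 0.05, 14 in each direction, which is 18.7% of members beside 13.8% of all probe sets. The smallest adjusted p, 0.0962, was shared by AT1G78460 (a SOUL heme-binding family protein) at -0.40, 245928_s_at at 0.53 and 255070_at at 0.38. AT1G78460 had 260 and 508 in Atss3 and 508 and 606 in WT at 1 h, and 1110 and 1642 in Atss3 and 2085 and 2090 in WT at 8.5 h.

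At 4 h no member was called, with 0.0205% of all probe sets called. The smallest p was that of 255070_at, with 1480 and 1768 in Atss3 and 874 and 889 in WT (difference 0.88, adjusted p = 0.612). At 8.5 h no member was called either, with 0.0205% of all probe sets called, and AT3G47160 came nearest, with 1337 and 2281 in Atss3 and 2769 and 3621 in WT (difference -0.86, adjusted p = 0.0793). Members at an unadjusted p under 0.05 numbered 10 at 4 h (6.67%, beside 4.05% of all probe sets) and 29 at 8.5 h (19.3%, beside 12.6%).

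At 12 h no member was called, with 0.0683% of all probe sets called. The probe set 245038_at had 1207 and 1707 in Atss3 and 391 and 420 in WT, with no overlap, a difference of 1.82 (adjusted p = 0.065). AT1G75800, a thaumatin-like protein, was at -0.70 (adjusted p = 0.0959). At 12 h 23 members (15.3%) had an unadjusted p under 0.05, beside 11.2% of all probe sets.

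At 16 h no member was called, with 0.0137% of all probe sets called, and 17 members (11.3%) had an unadjusted p under 0.05, beside 3.05% of all probe sets. AT1G23390, a Kelch F-box protein that targets chalcone synthase, had 3556 and 3242 in Atss3 and 1705 and 1677 in WT (difference 1.01, adjusted p = 1). AT5G47330 had 482 and 956 in Atss3 and 1430 and 1690 in WT (difference -1.20, adjusted p = 1). The median difference over all members was 0.13, and 106 members (70.7%) were above 0, beside 48.3% of all probe sets. In run 1 alone it was 0.13 and in run 2 alone 0.09. Run 2 alone, which holds no array of run 1, had 93 members above 0. The size of the shift varied with the arrays used. In the fit of both runs without the Atss3 array of run 1 at 16 h, the median was 0.03 with 87 members above 0. Leaving out other arrays gave 0.09 to 0.18. The median over members was 0.02 at 8.5 h and -0.06 at 12 h.

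**Figure D5:**
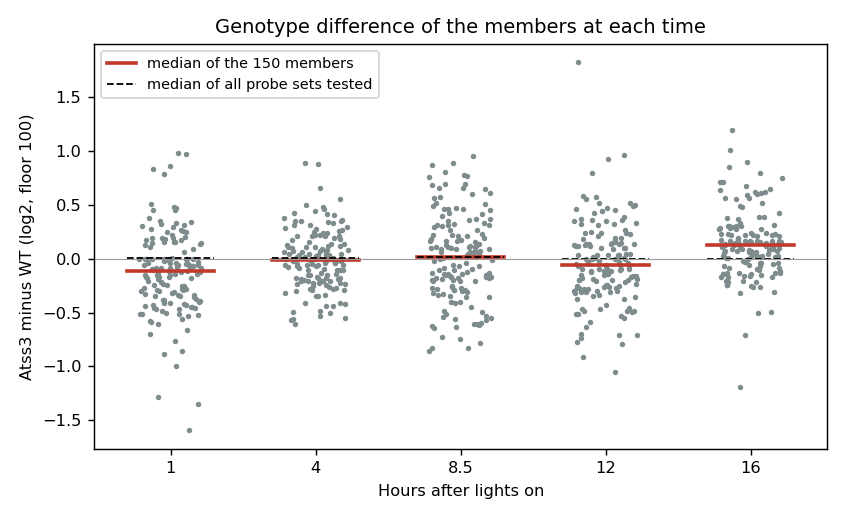
Atss3 minus WT (log2, signals raised to 100) for each of the 150 members (grey points) at the 5 harvest times, with the median of the members (red) and of all probe sets tested (dashed). The median of the members is -0.12 at 1 h and 0.13 at 16 h, and that of all probe sets stays between 0 and 0.02.

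The depth of the low was also compared between runs. One member was called, 266072_at, with 0.0819% of all probe sets called. At 1 h its signals in run 2 were 115 in Atss3 and 174 in WT, and in run 1 they were 182 in Atss3 and 246 in WT. At 8.5 h run 2 gave 3032 in Atss3 and 4305 in WT, and run 1 gave 1918 in Atss3 and 2643 in WT. The difference in depth, run 2 minus run 1, was -1.25 (SE 0.14, adjusted p = 0.00422). The next was AT4G16146, a protein related to cAMP-regulated phosphoproteins, at 1.40 (adjusted p = 0.0754), with 352 in Atss3 and 346 in WT in run 2 and 130 in Atss3 and 74.7 in WT in run 1 at 1 h.

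The members were set beside other genes of known pathways on 14 lists with 168 entries, of which 25 had a probe set that was tested. DPE1 and AT3G15450 were the members among them. Of the other 23, 9 were lower and 7 higher at 1 h than in the mean of the other 4 times, and 7 did not pass, where 28.7% of all probe sets were called lower and 22.1% higher. PWD, the phosphoglucan water dikinase that primes starch for breakdown, was the other starch breakdown gene tested. It was lower at 1 h by -1.74 (SE 0.12, adjusted p = 2.41e-08), with means of 720 at 1 h, 1336 at 4 h, 3367 at 8.5 h, 3255 at 12 h and 2289 at 16 h and a margin of 0.89. Of 3 starch synthesis genes, PTST1 was lower at -1.06, APL3 higher at 1.07, and SBE2.2 at -0.06 did not pass.

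Of the 6 cold and abscisic acid genes tested, 5 were lower at 1 h and none was a member. COR15B was at -1.88 and COR15A at -1.08. COR27 and COR28 stood at the floor of 100 at both 1 h and 4 h, so no size is given for them, and their means at 8.5 h were 4219 and 1596. COR15A and COR15B had their lowest mean at 16 h. Genes higher at 1 h than in the mean of the other 4 times included GI and RVE6 (0.89), both of the circadian clock. GI had means of 1196 at 1 h, 1020 at 4 h and 1544 at 8.5 h. It stood at the floor of 100 at 12 h and 16 h, so no size is given for it. Also higher were the flavonoid glucosyltransferase UGT78D2 at 3.54 and the light-harvesting genes LHCB4.2 at 1.07 and LHCB4.1 at 0.24. Both light-harvesting genes had their highest mean at 4 h, with 22055 for LHCB4.2 and 26901 for LHCB4.1. At 1 h they had 20039 and 25066. For UGT78D2 the mean was 5213 at 1 h and 774 at 4 h, the opposite order to that of the members.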

How the data were processed

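Total RNA was labelled with biotin, per the labels, and measured on 20 arrays. The deposited values are linear signal intensities made by the authors with MAS5, per the submitters' processing notes, with no version given in the sources used here. Their 2% trimmed mean was 499.8 on every array, so they had been scaled before deposit. No column of per-sample values was left unused. Of 22810 probe sets, 64 controls were left out. Names came from a platform annotation, updated through the gene table of TAIR10.1. For tests, signals under 100 were raised to 100, log2 was taken, and probe sets above 100 on at least 4 arrays were kept (14650). limma 3.58.1 (R 4.3.3) fitted 10 group means and the run, with 9 residual degrees of freedom and an intensity trend, 2-sided, adjusted by Benjamini-Hochberg over the kept probe sets. The code was tested on simulated data. Figures used matplotlib 3.10.9 under Python 3.11.15.

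The members and gene lists were chosen with earlier results of these data known. Genes named were the 15 largest margins, members on a list, the 6 largest margins with 1 gene at each peak time, called members or the 2 smallest p of each contrast, the 3 probe sets on either side of the limit, the 5 highest and 5 lowest overall means, and up to 3 called genes of a list. Others (the neighbour pairs, AT5G62360 and those described after it, 263034_at, PORB, AT3G61100 and 263679_at in depth, and further listed genes) were named after their values were seen. The run numbers pair the arrays because the labels describe 2 runs. Arrays of the same run deviated together from their group means, with a correlation over 0.1 for 43 of the 45 group pairs (median 0.25). Alternatives were other floors, scalings and filters, each genotype or run alone, and leaving out each array. Promoter and transcript sequences were not used here.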

Additional observations from a re-analysis of the deposited data

Results flagged for a closer look

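The depth of the low in 251935_at was called as different between the genotypes in a test of the difference itself, under the main setting. The log2 change at 1 h against the other times differed by -1.46 between Atss3 and WT (adjusted p = 0.0108, limma). Its margin was 2.79 in Atss3 and 1.28 in WT, and both Atss3 arrays of 1 h were under 100. The call was lost without the replicate block and with 64 added to each signal, and it depended on single arrays of 1 h.

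The depth of the low in 266072_at differed between the runs, run 2 minus run 1, by -1.25 (adjusted p = 0.00422, limma). Its margin was 2.65 in run 2 and 1.39 in run 1, and the direction was the same in both genotypes.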

How the results depend on the processing

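Of the 150 members, 148 were kept with median centring, 144 with quantile normalization, 126 with a floor of 50, 118 with a floor of 200, 125 from WT arrays only, 113 from Atss3 arrays only, 121 from run 1 only and 115 from run 2 only. Leaving out 1 array kept 132 to 149. Without the 5 WT arrays of run 1, a setting chosen after seeing the data, 135 were kept. All 150 were lowest at 1 h under each of these. Counts of called members were small and moved. At 1 h the count was 1, and 3 with a floor of 1 together with the 40th percentile filter. For the genotype difference in depth it was 1, and 3 with that floor and filter, 2 with no filter, 0 with 64 added and 0 without the replicate block. For the run difference in depth it was 1, and 4 with that floor and filter and 2 with median centring. Without the replicate block the listed genes called at 1 h numbered 17, against 18, and no other count changed, and the run difference was not fitted without it. Leaving out 1 array gave 0 to 2 called members over the day, 0 to 6 at 1 h, 0 to 2 over the 4 later times, 0 to 9 for the genotype difference in depth, 1 to 3 for the run difference and 17 to 20 listed genes. The cause of these moves was not tested. With 2 arrays a group, precision is limited by their number, and members under 100 at 1 h have only a bound there.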
